A study of Homo sapiens with 40 samples.

Results

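The SR proteins and the heterogeneous nuclear ribonucleoproteins (hnRNPs) are the 2 large families of RNA-binding proteins that set which splice sites a cell uses. The genes described here are the protein-coding genes named SRSF or HNRNP followed by a number or letters, together with TRA2A and TRA2B, whatever their counts. They are 40 of the 19962 genes in the count table: 14 genes of the SR and TRA2 side (12 SRSF genes and 2 TRA2 genes) and 26 HNRNP genes. Of these 40, 35 passed the filter on low counts and were tested, 13 on the SR and TRA2 side and 22 on the hnRNP side. SRSF12 and the 4 HNRNPCL genes had no read in any of the 40 libraries. For each gene this allows up to 3 counts over the 40 libraries together (counting error only).

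SR proteins carry an RNA recognition motif and a tail rich in arginine and serine. They sit on exonic enhancers and help the spliceosome to recognise the neighbouring splice sites, and kinases of the SRPK and CLK families control them by phosphorylating the tail. The hnRNPs coat nascent transcripts, often act against SR proteins at silencer elements, and also take part in mRNA export, stability and translation. Both families adjust their own mRNA through exons whose inclusion leads to nonsense-mediated decay, so the level of their mRNA is itself under splicing control.

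All libraries came from RKO, a long-established cell line of human colorectal carcinoma, made to carry Cas9 under doxycycline control and GFP, as sorted pools that express a pair of guides and a blue fluorescent protein. The guides were directed at IGF2BP2, at IGF2BP3 or at the non-coding locus AAVS1, and the 3 lines are called sgIGF2BP2, sgIGF2BP3 and sgAAVS1. IGF2BP2 and IGF2BP3 are cytoplasmic proteins that bind mRNAs and are known for affecting their stability. Each line was given DMSO or 250 ng/mL doxycycline (Dox) for 72 hours, which makes 6 groups. In the other 4 groups the sgIGF2BP2 line received a non-targeting siRNA (siControl) or an siRNA pool against IGF2BP2 (siIGF2BP2), and the sgIGF2BP3 line received siControl or an siRNA pool against IGF2BP3 (siIGF2BP3), at 75 nM for 48 hours. The labels name no Dox for these 4 groups. All cells were given s4U, a uridine analogue that marks new RNA, at 250 µM for 2 hours. Each of the 10 groups has 4 libraries from wells of a 24-well plate, so the p-values measure the spread between wells. Whole-gene counts were compared, which do not separate new from old RNA. In bulk RNA, fewer cells with a transcript and less transcript per cell cannot be told apart.

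The guides are shown because both TRA2 genes lie beside their targets. They are written with the adjacent PAM, which the capitals mark, and their positions are matches to GENCODE transcripts on GRCh38, the build the submitters' processing notes name as hg38. All 4 guides match the plus strand inside coding exons, and both target genes are on the minus strand.
IGF2BP2 guide 1, exon 5, chr3:185692722-185692741: atatgtgacgttgacaacggCGG
IGF2BP2 guide 2, exon 10, chr3:185672630-185672649: gtgcgctgaggttcaaccctGGG
IGF2BP3 guide 1, exon 11, chr7:23319200-23319219: tggcaccgactgatagagctGGG
IGF2BP3 guide 2, exon 1, chr7:23470045-23470064: gaagatactttctaggtccgAGG
Exons are numbered along the transcript with the longest coding sequence. TRA2B (chr3:185915906-185938136) lies 90.8 kb from IGF2BP2, and 223.2 and 243.3 kb from its guides. TRA2A (chr7:23504780-23532041) lies 34.3 kb from IGF2BP3, and 34.7 and 185.6 kb from its guides. HNRNPA2B1 (chr7:26173057-26201529) lies 2702.6 kb from IGF2BP3.

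The promoters of several members that fell together with Dox, described further on, are shown by 30 bases around a CCAAT box, the binding letters of the factor NF-Y. The letters searched were CCAAT on both strands in the 250 bases before each RefSeq start (GRCh38.p14). The box is in capitals, written ATTGG where it lies on the other strand.
HNRNPU, chr1:244864712-244864741, minus strand: atttgctcagtcCCAATtggaagcgcactg
HNRNPF, chr10:43408915-43408944, minus strand: caggcgctgaggATTGGggccggcagcgcg
HNRNPA2B1, chr7:26200830-26200859, minus strand: agccttcccgccATTGGcggcggatagggc
HNRNPAB, chr5:178204403-178204432, plus strand: gcgccgtggcggCCAATgggacgctgaagc
HNRNPL, chr19:38852410-38852439, minus strand: cgccccctgcccCCAATttttcttcccccc
The box begins 186, 75, 101, 118 and 80 bases before the start in this order. Of the 31 tested members with a promoter in the RefSeq table, 15 (48.4%) held the letters, against 35.4% of the promoters of 9135 tested genes. Of the 21 among them that were called lower with Dox in sgIGF2BP2, 10 held the letters, a share like that of the 31. Members that fell and lack the box are not shown. The E2F letters TTCCCGC, searched in the same way, were in 8 member promoters (25.8%), against 9.3%, and in HNRNPA2B1 they stand just before the box shown without overlapping it. The letters of the ETS core, CCGGAAG, were in 16.1% of member promoters and 17.1% of all. TATAAA was in 16.1% of member promoters and 4.6% of all, the cell-cycle letters TTTGAA in 3.2% and 8.0%, and the cAMP response letters TGACGTCA in 0 members and 2.9% of all. The median GC content was 65.6% for the members' promoters and 65.2% for all. A match of such letters is a description, and binding was not measured.

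The libraries held 10018181 to 24822807 counts, and the members took 1.06% to 1.21% of them. The targeted genes fit the labels: IGF2BP2 went from a mean of 85.3 to 33.9 CPM (counts scaled to a common library total) with Dox in sgIGF2BP2, and IGF2BP3 from 180 to 56.2 CPM with Dox in sgIGF2BP3. The siRNA pools lowered IGF2BP2 from 108 to 30.2 CPM and IGF2BP3 from 170 to 24.7 CPM. IGF2BP3 also fell with Dox in sgIGF2BP2, by 0.25 on the log2 scale (adjusted p = 2.93e-06). Of 8 epithelial markers of the colon, KRT8, KRT18, EPCAM and CDX2 were present, while KRT19, CDH1, VIL1 and CEACAM5 had a median of 0 CPM. Replicate 2 of the Dox group of sgIGF2BP2 stood apart, with 5.86% of its counts on mitochondrial genes against 8.38% to 9.12% in the other 3 wells, and results that turn on it are given with and without it. Replicate 2 of the Dox group of sgAAVS1 had 6.99%, against 8.23% to 8.68% in the other 3 wells of that group. In the sgAAVS1 line SPOP, a gene of the long arm of chromosome 17, fell with Dox from 36.7 to 11.4 CPM. SRSF1 and SRSF2 lie further out on the same arm.

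Levels between genes were compared per kilobase of exon, counting every base in an exon of any annotated transcript. This length was 2144 bases for HNRNPAB and 22512 for HNRNPU, so the order depends on the annotation. In CPM alone HNRNPA2B1 was highest at 1386, and HNRNPAB stood at 492. HNRNPAB was highest at 229.6 CPM per kb, followed by HNRNPA1, a silencer-binding repressor of splice sites, at 215.7 CPM per kb, and HNRNPF at 184 CPM per kb. HNRNPA2B1, the close relative of HNRNPA1, stood at 150 CPM per kb and HNRNPK, which binds runs of C, at 141 CPM per kb. SRSF2 was the highest SR gene at 123 CPM per kb, and SRSF9 came next on that side at 86.4 CPM per kb. The middle member of the 33 well-expressed genes was HNRNPU at 36.3 CPM per kb, and the lowest were HNRNPUL2 at 7.12 and HNRNPLL at 6.93 CPM per kb, a 33.1-fold range. The remaining tested members, HNRNPA1L2 and HNRNPA1P48, are copies of HNRNPA1 with means of 2.53 and 2.36 CPM. GENCODE names 74 pseudogenes of HNRNPA1 and 16 of HNRNPA3, so the levels of these genes are uncertain where reads match several copies.

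Across the 10 groups the 33 well-expressed members kept a narrow range. Their highest group mean was between 1.097-fold (HNRNPC) and 1.29-fold (SRSF1) the lowest, with a median of 1.15-fold. The coefficient of variation over the 40 libraries ran from 3.74% for HNRNPK to 9.03% for SRSF1 among them. The sparse copies HNRNPA1L2 and HNRNPA1P48 varied more, with group means of 2.05 to 3.04 and 1.87 to 2.78 CPM. The DMSO group of sgIGF2BP2 was the highest for 19 of 35 members. The Dox group of the same line was the lowest for 14, siIGF2BP2 for 8 and the siControl group of sgIGF2BP3 for 6. The heatmap of the members' changes gives all 7 comparisons of a treated group with its control.

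**Figure D1:**
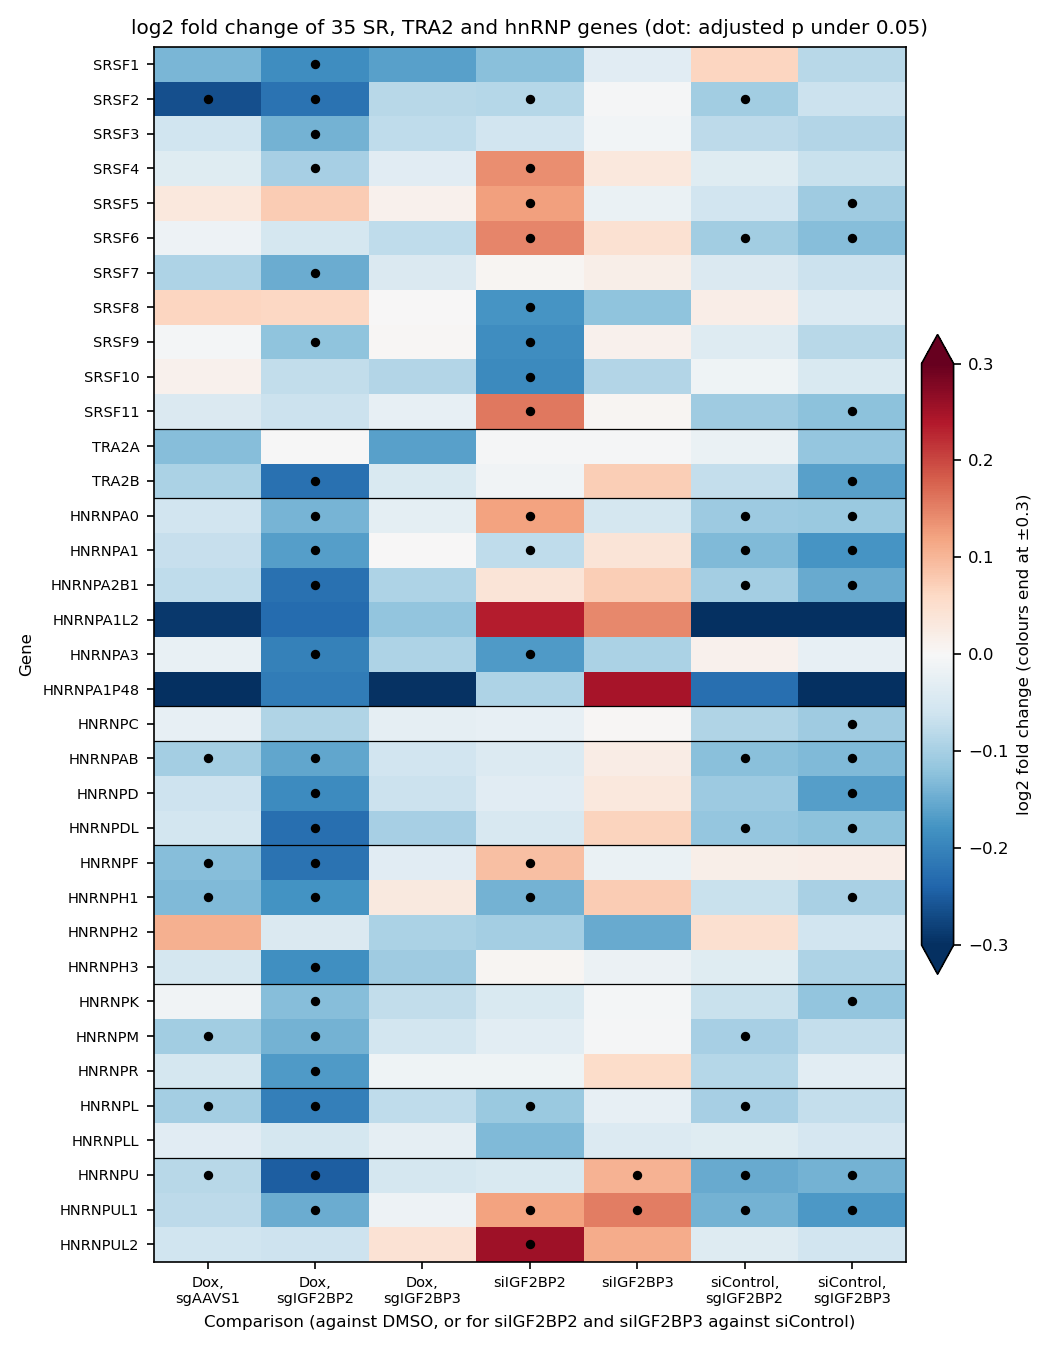
Log2 fold change of the 35 tested members (rows, grouped by family) in 7 comparisons (columns): Dox in 3 lines and siControl in 2 lines against DMSO, and both siRNA pools against siControl. Colours end at ±0.3, and a dot marks an adjusted p under 0.05. The column of Dox in sgIGF2BP2 has dots on 23 members, all lower, and that of siIGF2BP2 has 8 higher and 8 lower.

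The summed level of both families was lower in the Dox wells than in the DMSO wells of each line. The 4 DMSO wells of sgIGF2BP2 held 9410 to 9541 CPM of hnRNP mRNA and the 4 Dox wells 8244 to 8416 CPM, a mean difference of 11.7%. In sgAAVS1 the hnRNP sum was 9146 to 9400 CPM with DMSO and 8727 to 8906 CPM with Dox, 4.69% lower. In sgIGF2BP3 it was 9249 to 9412 CPM with DMSO and 8885 to 9193 CPM with Dox, 3.53% lower. DMSO and Dox wells therefore did not overlap in any of the 3 lines, and the sgIGF2BP2 line had the widest gap. The SR and TRA2 sum went from 2522 ± 76.7 to 2322 ± 70.1 CPM (SD, n = 4) in sgIGF2BP2, 7.92% lower. It was 5.02% lower with Dox in sgAAVS1 and 3.71% lower in sgIGF2BP3, again with no overlap between the wells. These sums describe the levels and were not tested.

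The siRNA groups sat elsewhere on the same scale. The hnRNP sum of the siControl wells was 8881 ± 74.0 CPM in sgIGF2BP2 and 8613 ± 97.2 CPM in sgIGF2BP3 (SD, n = 4 each), 6.30% and 7.85% below the DMSO wells of the same lines. It was 8780 ± 146 CPM with siIGF2BP2 and 8809 ± 67.0 CPM with siIGF2BP3. Against the siControl of its line the hnRNP sum was 1.13% lower with siIGF2BP2 and 2.28% higher with siIGF2BP3.

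**Figure D2:**
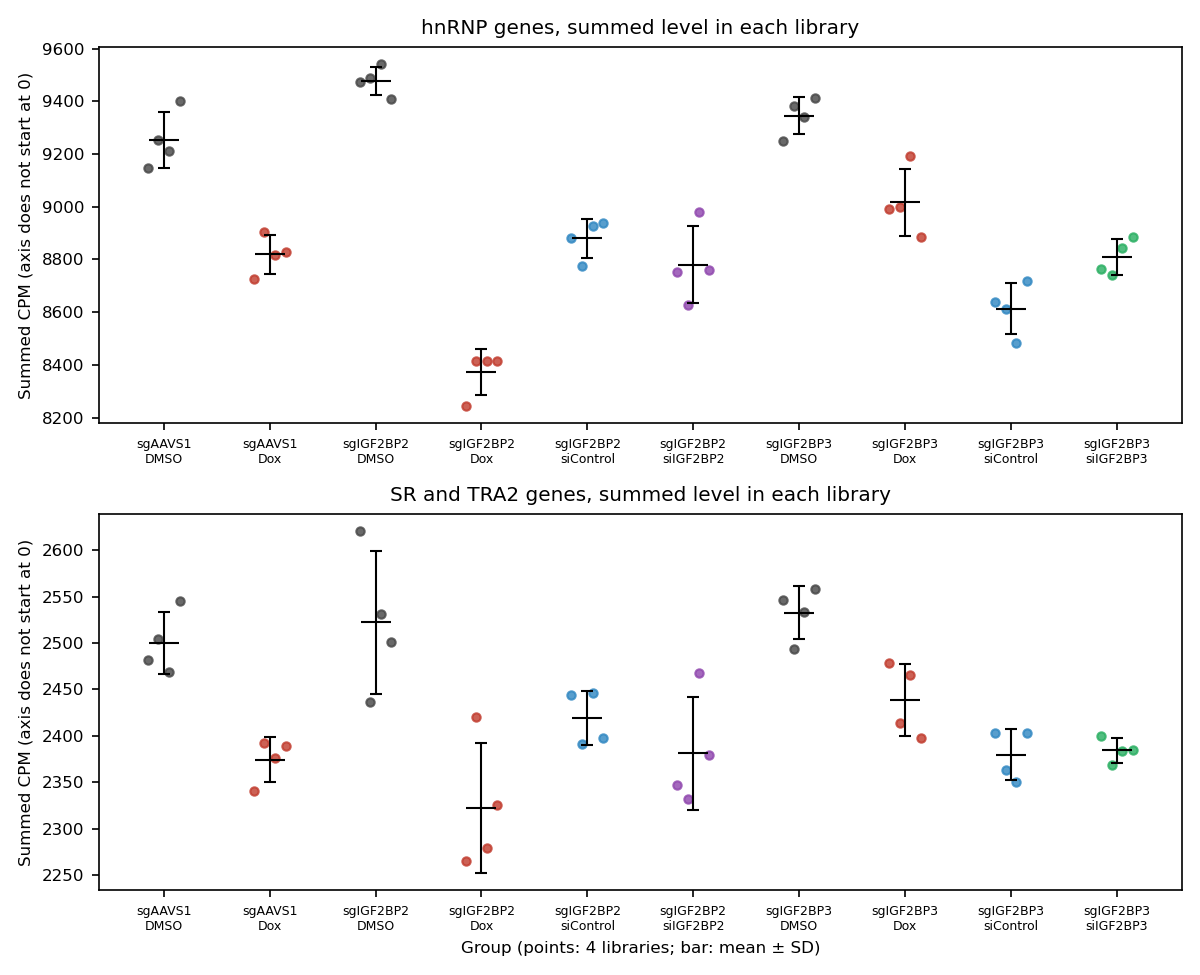
Summed level of the hnRNP genes (top) and of the SR and TRA2 genes (bottom) in each of the 40 libraries, in CPM, by group (points are libraries, the bar is the mean ± SD of 4, and the axes do not start at 0). Within each of the 3 lines the Dox wells lie below the DMSO wells for both sums, with the widest gap in sgIGF2BP2.

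Dox in the sgIGF2BP2 line lowered 23 of the 35 tested members and raised none (edgeR's quasi-likelihood test, Benjamini-Hochberg adjusted p under 0.05 over all 11428 tested genes). Among all tested genes 10.4% fell in this comparison, and among the 5097 genes at least as abundant as the lowest well-expressed member 18.7% did. The calls covered 16 of 22 hnRNP genes and 7 of 13 SR and TRA2 genes. The changes were small: the median log2 change of the members was -0.15 against 0.01 for all tested genes and -0.024 for the 5097 abundant ones. It was negative for 33 of 35 members and for 5436 of all 11428 tested genes. Every Dox well was below every DMSO well for 18 of 35 members and for 1043 of all tested genes. All 3 genes of the HNRNPD family fell, as did HNRNPK, HNRNPM and HNRNPR. The 12 tested members not called were SRSF5, SRSF6, SRSF8, SRSF10, SRSF11, TRA2A, HNRNPC, HNRNPH2, HNRNPLL, HNRNPUL2, HNRNPA1L2 and HNRNPA1P48.

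HNRNPU, an abundant protein that binds chromatin-associated RNA and the nuclear scaffold, had 886.8, 885.6, 905.7 and 878.0 CPM with DMSO in sgIGF2BP2 and 735.9, 729.6, 765.9 and 764.9 CPM with Dox. Every Dox well was below every DMSO well. The log2 change was -0.25 ± 0.030 (SE; edgeR's quasi-likelihood test, adjusted p = 1.2e-09). COX20, which lies on the opposite strand and shares 3502 exon bases with HNRNPU, fell by 0.35 on the log2 scale in the same comparison, at a mean of 47.6 CPM. Whether the counting used strand is not given in the sources used here, so reads of overlapping opposite-strand genes cannot be told apart.

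HNRNPA2B1, a regulator of splicing and of microRNA sorting, had 1464, 1488, 1510 and 1476 CPM with DMSO and 1237, 1296, 1266 and 1283 CPM with Dox in sgIGF2BP2. The groups did not overlap, and the log2 change was -0.22 ± 0.030 (adjusted p = 2.2e-08). HNRNPF, which binds runs of G, had 611.1, 626.7, 610.1 and 597.1 CPM with DMSO and 537.6, 490.0, 532.4 and 538.3 CPM with Dox, where replicate 2 was the lowest well. Its log2 change was -0.22 ± 0.032 (adjusted p = 2e-07). HNRNPDL, a paralog of HNRNPD, fell from 343.1 to 368.0 CPM in the DMSO wells to 292.6 to 312.1 CPM in the Dox wells, by 0.23 on the log2 scale. None of these 3 genes lost its call when any 1 library of the comparison was left out.

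On the SR and TRA2 side, SRSF2, which recognises exonic enhancers and is recurrently mutated in myeloid neoplasms, had 408.0, 398.1, 396.4 and 400.9 CPM with DMSO in sgIGF2BP2. It had 329.4, 367.9, 331.9 and 344.2 CPM with Dox, where the well with the low mitochondrial share, replicate 2, was the highest. The log2 change was -0.22 ± 0.031 (adjusted p = 9.5e-08). TRA2B, which binds GA-rich enhancers, had 220.6, 196.9, 212.6 and 208.6 CPM with DMSO and 192.8, 172.0, 174.4 and 179.6 CPM with Dox. The groups did not overlap, and the log2 change was -0.22 ± 0.035 (adjusted p = 1.3e-06). SRSF9 had 334.4 to 343.1 CPM with DMSO and 289.2, 345.4, 301.6 and 302.3 CPM with Dox, so that replicate 2 alone lay above all DMSO wells. Its log2 change was -0.12 ± 0.036 (adjusted p = 0.011) with all wells and -0.18 (adjusted p = 6.4e-05) without replicate 2. SRSF3 and SRSF7 fell by 0.14 and 0.15 on the log2 scale. Without replicate 2 of the Dox group, 22 members were called lower in place of 23, and SRSF4 (adjusted p = 0.19) and HNRNPR were among those that lost the call.

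Leaving out single libraries ended 4 of the 23 calls in at least 1 fit. SRSF4 was called in 2 of 8 such fits and SRSF1, the founding member of the SR family, in 5 of 8. SRSF9 and HNRNPR were called in 7 of 8. SRSF9 lost its call without replicate 1 of the Dox group (adjusted p = 0.093) and HNRNPR without replicate 2 (adjusted p = 0.066).

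**Figure D3:**
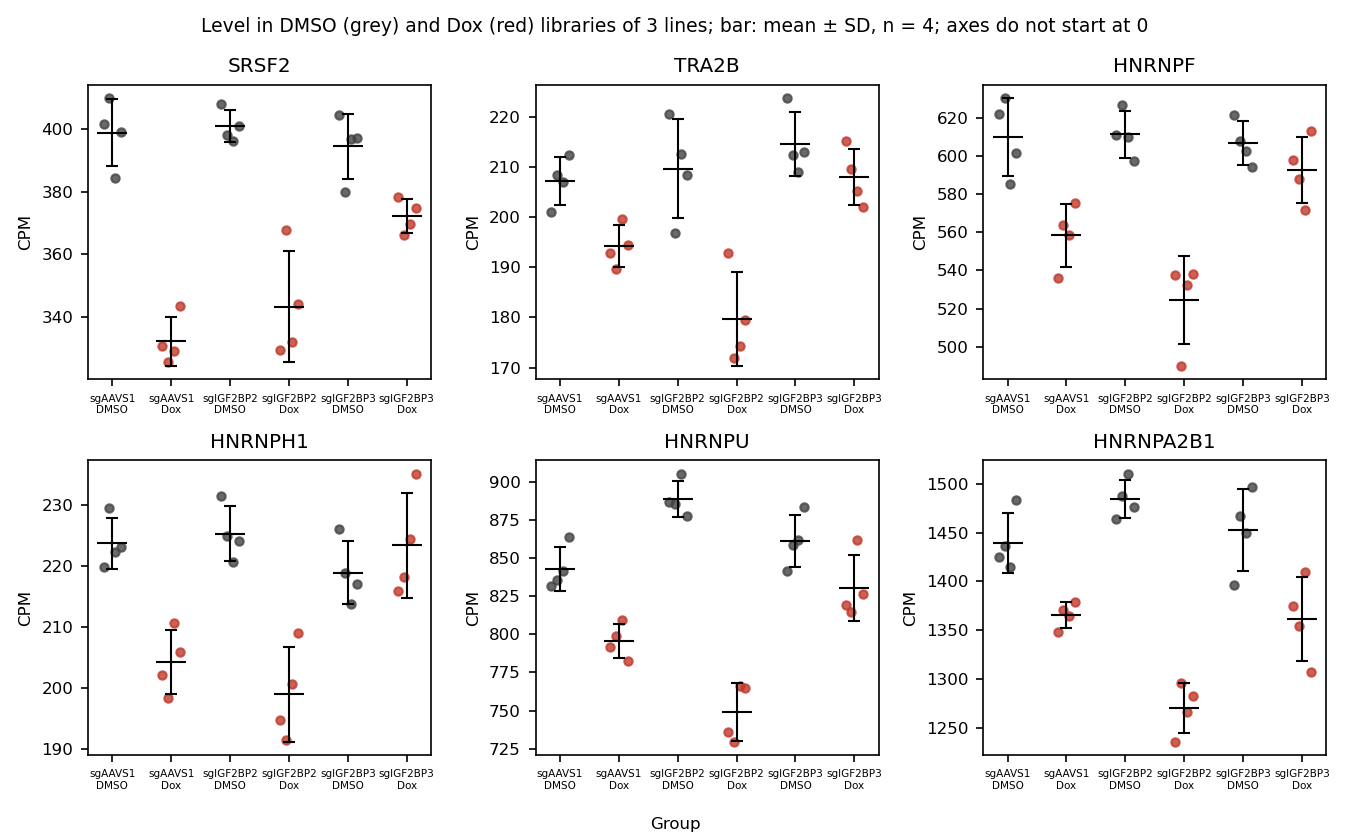
Level in CPM of SRSF2, TRA2B, HNRNPF, HNRNPH1, HNRNPU and HNRNPA2B1 in the DMSO (grey) and Dox (red) wells of the 3 lines (points are libraries, the bar is the mean ± SD of 4, and the axes do not start at 0). In sgIGF2BP2 the Dox wells of all 6 genes lie below the DMSO wells, as in sgAAVS1, while in sgIGF2BP3 those of SRSF2 alone do. All 6 were called lower with Dox in sgIGF2BP2. Of all 11428 tested genes, 1043 had every Dox well below every DMSO well in sgIGF2BP2, 1083 in sgAAVS1 and 525 in sgIGF2BP3. Of the 35 tested members, 18, 10 and 6 did in the same order.

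In the control line sgAAVS1, Dox lowered 7 of 35 members and raised none, where 8.68% of all tested genes and 16.5% of the genes of at least the same abundance fell. These 7 were SRSF2, HNRNPF, HNRNPH1, HNRNPAB, HNRNPL, HNRNPM and HNRNPU, and all 7 were also called lower in sgIGF2BP2. The median log2 change was -0.06 for the members, 0.00 for all tested genes and -0.025 for the genes of at least the same abundance. SRSF2 had the largest change of the called members: 401.7, 410.0, 384.3 and 399.1 CPM with DMSO and 330.7, 325.6, 329.1 and 343.5 CPM with Dox. The wells did not overlap, and the log2 change was -0.26 ± 0.031 (edgeR's quasi-likelihood test, adjusted p = 1.6e-09). HNRNPF fell by 0.13 on the log2 scale (adjusted p = 0.0033) and HNRNPH1, its relative in binding G runs, also by 0.13 (adjusted p = 0.0026). HNRNPAB fell by 0.10 (adjusted p = 0.014). Those 4 kept their call without any 1 library, whereas HNRNPL and HNRNPU were called in 2 of 8 such fits and HNRNPM in 3 of 8. The count depended on the processing: 11 members were called with DESeq2, 20 with the offset for GC content and length, and 4 without replicate 1 of the Dox group.

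The position of SRSF2 was shared with genes that also fell in this line. SRSF1 (chr17:58003360-58007346) lies 8.33 Mb and SRSF2 (chr17:76734115-76737374) 27.06 Mb beyond SPOP. The other 248 tested genes from SPOP to the end of chromosome 17 had a median log2 change of -0.17 with Dox in sgAAVS1, with 129 called lower and 1 called higher. Their medians were 0.02 in sgIGF2BP2 and 0.01 in sgIGF2BP3. SRSF1 had a log2 change of -0.14 ± 0.056 in sgAAVS1 (adjusted p = 0.089). The part of the neighbouring genes' fall in the change of SRSF2 was not tested. In sgIGF2BP2, where the neighbours did not fall as a group, SRSF2 was lower by 0.22 on the log2 scale. MFSD11, on the opposite strand, shares 1106 exon bases with SRSF2 at a mean of 9.9 CPM.

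In the sgIGF2BP3 line no member passed the threshold with Dox, where 2.64% of all tested genes did in either direction. The median log2 change of the members was -0.06, 29 of 35 were negative, and 12 had an unadjusted p under 0.05. Of all 11428 tested genes, 5571 were negative and 1898 had an unadjusted p under 0.05. DESeq2 called 5 members, all lower. SRSF2 had 404.6, 380.0, 396.7 and 397.0 CPM with DMSO and 378.2, 366.1, 369.6 and 374.9 CPM with Dox. Its log2 change was -0.08 ± 0.032 (adjusted p = 0.13), although every Dox well was below every DMSO well. TRA2A, the gene next to IGF2BP3, had 81.8, 75.4, 72.6 and 78.0 CPM with DMSO and 73.2, 62.9, 68.0 and 70.8 CPM with Dox, so the groups overlapped in 1 well. Its log2 change was -0.16 ± 0.052 (adjusted p = 0.069), while in sgIGF2BP2 it was -0.00 ± 0.051. The 79 other tested genes from the start of chromosome 7 to IGF2BP3, away from TRA2A, had a median of -0.15 with 20 called lower, and the 42 within 10 Mb on the side of TRA2A had a median of -0.06 with 0 called lower. Over the 3 lines, 27 of 35 members had a negative log2 change in each, which was not counted over all tested genes. In single lines, 5570 (sgAAVS1), 5436 (sgIGF2BP2) and 5571 (sgIGF2BP3) of the 11428 tested genes were negative. The 5097 abundant genes had median log2 changes of -0.025, -0.024 and -0.004 in the same order.

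TRA2B, the neighbour of IGF2BP2, was the counterpart in the other line. The 47 other tested genes from IGF2BP2 to the end of chromosome 3 had a median log2 change of -0.08 with Dox in sgIGF2BP2, with 9 called lower and 3 called higher, and TRA2B lay at -0.22. In sgAAVS1 the log2 change of TRA2B was -0.09 ± 0.035 (adjusted p = 0.057) and in sgIGF2BP3 -0.05 ± 0.035 (adjusted p = 0.56). With siIGF2BP2, for which the labels name no Dox, TRA2B stood at -0.01 ± 0.035 (adjusted p = 0.83). The part of its position in its change was not tested.

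Differences between the lines in the Dox change were tested directly. The shares given beside them are of all tested genes, and the share among genes of at least the same abundance was not counted. Between sgIGF2BP2 and sgAAVS1, 4 of 35 members differed, all with the lower change in sgIGF2BP2, where 6.97% of all tested genes differed. They were HNRNPA2B1, HNRNPA3, HNRNPDL and HNRNPU, all hnRNP genes. HNRNPA3, an A-type hnRNP, differed the most, by -0.18 ± 0.048 on the log2 scale (adjusted p = 0.013). It had 385.9 to 422.9 CPM with DMSO and 380.4 to 410.7 CPM with Dox in sgAAVS1, which overlap, and 399.1 to 426.7 CPM against 344.2 to 377.1 CPM in sgIGF2BP2, which do not. HNRNPU differed by -0.16 ± 0.042 (adjusted p = 0.0089). With an offset for GC content and length, HNRNPA2B1, HNRNPA3 and HNRNPU lost the call. Leaving out replicate 3 of the DMSO group of sgIGF2BP2 also ended it for HNRNPA2B1 (adjusted p = 0.056) and HNRNPDL (adjusted p = 0.053).

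Between sgIGF2BP3 and sgIGF2BP2, 5 members differed, all with the higher value in sgIGF2BP3, where 2.91% of all tested genes differed. HNRNPH1 led, with a difference of 0.21 ± 0.046 (adjusted p = 0.0034). It had 213.7 to 226.1 CPM with DMSO and 216.0 to 235.2 CPM with Dox in sgIGF2BP3, against 220.7 to 231.6 CPM and 191.4 to 209.1 CPM in sgIGF2BP2. The groups overlapped in the first line and were apart in the second. HNRNPU differed by 0.20 ± 0.042 (adjusted p = 0.0029), HNRNPF by 0.19 ± 0.046 (adjusted p = 0.0085), TRA2B by 0.18 ± 0.050 (adjusted p = 0.03) and HNRNPA1 by 0.17 ± 0.041 (adjusted p = 0.01). TRA2B kept this call in 7 of 16 fits without 1 library, and without replicate 2 of the Dox group of sgIGF2BP2 its difference was 0.16 (adjusted p = 0.076). The offset for GC content and length gave 11 members in place of 5, and 7 members differed without replicate 2 of the Dox group of sgIGF2BP2. Between sgIGF2BP3 and sgAAVS1, 3 members (8.57%) differed, near the 7.78% of all tested genes that did. They were SRSF2, by 0.18 ± 0.044 (adjusted p = 0.0063), HNRNPH1, by 0.16 ± 0.046 (adjusted p = 0.018), and HNRNPH2, by -0.20 ± 0.065 (adjusted p = 0.04). HNRNPH1 kept its call in 14 of 16 fits without 1 library and HNRNPH2 in 7 of 16. Replicate 2 of the Dox group of sgAAVS1 held 89.1 CPM of HNRNPH2 against 77.2 to 78.1 CPM in the other 3 wells. It was the well of that group with the low mitochondrial share. Without this well the adjusted p of HNRNPH2 was 0.14, and with the offset for GC content and length the adjusted p was 0.24.

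The siIGF2BP2 pool changed 16 members, 8 higher and 8 lower, in a comparison where 36.8% of all tested genes changed, 18.4% higher and 18.4% lower. Among the genes of at least the same abundance, 46.8% changed in either direction, and the members' 16 of 35 (45.7%) was close to that share. The SR genes split: of 11 tested, SRSF4, SRSF5, SRSF6 and SRSF11 rose and SRSF2, SRSF8, SRSF9 and SRSF10 fell. On the hnRNP side HNRNPA0, HNRNPF, HNRNPUL1 and HNRNPUL2 rose and HNRNPA1, HNRNPA3, HNRNPH1 and HNRNPL fell. Neither TRA2 gene was called. Wells that do not overlap were common here: of 11428 tested genes, 1719 had every siIGF2BP2 well above every siControl well and 1780 had every one below. Of the 35 tested members, 7 and 9 did.

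SRSF6, an SR protein also studied as a proto-oncogene, had 175.0, 164.8, 177.4 and 164.9 CPM with siControl and 194.9, 178.3, 196.0 and 186.4 CPM with siIGF2BP2. The wells did not overlap, and the log2 change was 0.15 ± 0.034 (edgeR's quasi-likelihood test, adjusted p = 0.0004). SRSF4 had 161.5 to 165.4 CPM with siControl and 177.1 to 182.5 CPM with siIGF2BP2, a log2 change of 0.14 ± 0.037 (adjusted p = 0.0017). SRSF11 had 137.8, 148.3, 165.3 and 157.4 CPM with siControl and 172.7, 170.2, 176.3 and 159.8 CPM with siIGF2BP2, which overlap. Its log2 change of 0.16 ± 0.045 (adjusted p = 0.004) lost its call without replicate 1 of siControl (adjusted p = 0.062).

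SRSF10, which turns into a splicing repressor when it loses its phosphates, had 136.8, 123.1, 129.7 and 129.2 CPM with siControl and 115.8, 115.0, 109.0 and 115.5 CPM with siIGF2BP2. The wells did not overlap, and the log2 change was -0.19 ± 0.045 (adjusted p = 0.00055). SRSF9 had 321.7, 323.1, 337.3 and 331.3 CPM with siControl and 275.3, 277.6, 311.6 and 289.6 CPM with siIGF2BP2, again apart, with a log2 change of -0.19 ± 0.036 (adjusted p = 3e-05). GATC, on the opposite strand, shares 1729 exon bases with SRSF9 and fell by 0.20 on the log2 scale at a mean of 36.6 CPM. SRSF8, a retroposed copy of SRSF2, fell from 48.9 to 53.8 CPM to 42.1 to 48.0 CPM, by 0.18 on the log2 scale (adjusted p = 0.0051).

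**Figure D4:**
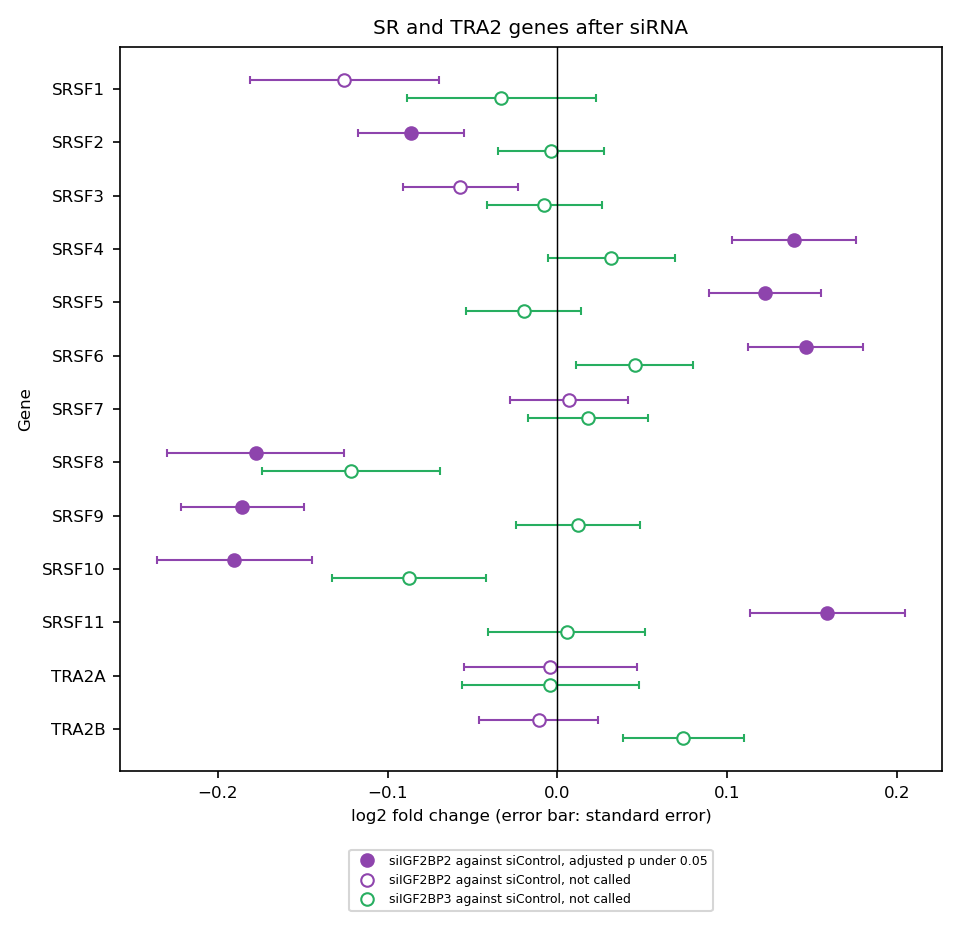
Log2 change of the 13 tested SR and TRA2 genes with siIGF2BP2 (purple) and siIGF2BP3 (green) against siControl, with bars of 1 SE and filled points where the adjusted p was under 0.05. With siIGF2BP2, 4 SR genes lie higher and 4 lower, and no point of siIGF2BP3 is filled.

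Among the hnRNP genes HNRNPUL2 rose the most, from 36.3, 34.8, 39.7 and 40.01 CPM with siControl to 40.7, 43.9, 50.2 and 44.3 CPM with siIGF2BP2. The wells did not overlap, and the log2 change was 0.25 ± 0.061 (adjusted p = 0.00062). HNRNPUL1, another relative of HNRNPU, rose by 0.12 ± 0.036 (adjusted p = 0.0052), and this call and those of HNRNPH1 and HNRNPA1 were lost with the offset for GC content and length. HNRNPA3 fell from 410.1 to 422.9 CPM to 358.3 to 383.1 CPM, by 0.17 on the log2 scale (adjusted p = 4.2e-05). HNRNPH1 fell from 213.8 to 216.9 CPM to 188.6 to 198.2 CPM, by 0.14 (adjusted p = 0.00031). HNRNPA1 kept its call in 3 of 8 fits without 1 library, SRSF2 in 5 of 8, and HNRNPA0, HNRNPF and HNRNPL in 7 of 8.

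The knockout and the siRNA pool against IGF2BP2 shared some of their calls. Of the 23 members lower with Dox in sgIGF2BP2, 6 were also among the 8 lower with siIGF2BP2 and 4 among the 8 higher. Because 23 of the 35 tested members were lower with Dox, large overlaps with either set of 8 are to be expected. The overlap was not counted over all tested genes. The Dox and siRNA log2 changes had a Pearson correlation of 0.078 over the 35 members and 0.15 over the 33 well-expressed ones. The 6 were SRSF2, SRSF9, HNRNPA1, HNRNPA3, HNRNPH1 and HNRNPL. The 4 were SRSF4, HNRNPA0, HNRNPF and HNRNPUL1. HNRNPF had log2 changes of -0.22 with Dox and 0.09 with siIGF2BP2 (edgeR's quasi-likelihood test, adjusted p = 0.021). Its siIGF2BP2 call was lost without the filter on low counts (adjusted p = 0.055) and with only the groups compared (adjusted p = 0.054). HNRNPU, the member with the largest fall under Dox among those called, was at -0.05 with siIGF2BP2 and was not called. The difference between the Dox and the siRNA change was not tested.

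The siIGF2BP3 pool raised 2 members and lowered none, where 0.936% of all tested genes rose. Of 11428 tested genes, 521 had every siIGF2BP3 well above every siControl well, and 6 of these were members. HNRNPUL1 had 435.3, 438.8, 451.4 and 447.3 CPM with siControl in sgIGF2BP3 and 513.9, 488.1, 486.4 and 481.5 CPM with siIGF2BP3. The wells did not overlap, and the log2 change was 0.15 ± 0.036 (adjusted p = 0.0066). It is the one member called in the same direction with both siRNA pools, and it lost the siIGF2BP3 call without replicate 1 of that group (adjusted p = 0.054). HNRNPU had 777.1, 773.4, 755.1 and 815.7 CPM with siControl and 849.6, 837.2, 853.6 and 815.7 CPM with siIGF2BP3, where replicate 4 of both groups had the same level. Its log2 change was 0.10 ± 0.030 (adjusted p = 0.04), and it kept the call in 2 of 8 fits without 1 library.

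Between the siRNA pools 6 members (17.1%) differed, each pool against the siControl of its own line. This was near the 18.7% of all tested genes that differed. HNRNPH1 was higher under siIGF2BP3 than under siIGF2BP2 by 0.22 ± 0.046 on the log2 scale (adjusted p = 0.00025) and SRSF9 by 0.20 ± 0.051 (adjusted p = 0.0033). HNRNPU was higher by 0.15 and HNRNPA1 by 0.11, and with the offset for GC content and length both lost the call, HNRNPU at 0.093 (adjusted p = 0.13) and HNRNPA1 at 0.099 (adjusted p = 0.073), and HNRNPA1 also without the filter on low counts (adjusted p = 0.083). HNRNPA0 was lower by -0.17 ± 0.051 (adjusted p = 0.01) and SRSF5 by -0.14. The line differs along with the pool, so the 2 cannot be told apart here. HNRNPA1 kept the call in 6 of 16 fits without 1 library and SRSF5 in 14 of 16.

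The siControl wells differed from the DMSO wells of the same line. In sgIGF2BP2, 11 members were lower with siControl and none higher, where 8.16% of all tested genes and 14.4% of those of at least the same abundance were lower. In sgIGF2BP3, 15 were lower and none higher, where the shares were 8.54% and 13.4%. Of the 18 members lower in either line, 8 were lower in both. HNRNPUL1 was lower by 0.14 and 0.17 on the log2 scale in the lines in this order, HNRNPA1 by 0.13 and 0.18, HNRNPU by 0.15 and 0.14, and HNRNPAB by 0.13 and 0.13. TRA2B was lower in sgIGF2BP3, with a log2 change of -0.16 ± 0.035 (adjusted p = 0.00037), and HNRNPD, which binds AU-rich mRNA, with -0.17 ± 0.041 (adjusted p = 0.0018, and 0.05012 with the offset for GC content and length). Transfection and the change of vehicle cannot be told apart in this comparison. The Dox comparisons use the same DMSO wells as these, so the falls under Dox and under siControl share their control samples.

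The other genes of the splicing pathway were described by list. Of 46 core spliceosome genes, 20 were lower and 1 higher with Dox in sgIGF2BP2, with a median log2 change of -0.08, and 12 were lower with Dox in sgAAVS1. The shares lower among all tested genes were 10.4% and 8.68% in these lines, and 18.7% and 16.5% among the genes of at least the members' abundance. The Sm proteins SNRPD3 (-0.34), SNRPF (-0.24) and SNRPE (-0.23), which form the ring on spliceosomal RNAs, had the largest named falls in log2 in sgIGF2BP2. In sgIGF2BP3, AQR was the one core gene called, at -0.20, and it kept the call in 5 of 8 fits without 1 library (adjusted p = 0.17 without replicate 4 of the Dox group). Of 30 tested other splicing regulators, 16 were lower with Dox in sgIGF2BP2, among them MBNL3 (-0.32, adjusted p = 0.052 without replicate 4 of the Dox group), MBNL1 (-0.22) and PCBP2 (-0.20). Of 28 tested SR-related genes, 7 were lower with Dox in sgIGF2BP2 and 6 lower and 1 higher in sgAAVS1, with SRRM1, a matrix protein of splicing complexes, at -0.18 in both.

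With siIGF2BP2 the named regulators included larger changes than any member showed. PTBP3, a relative of the polypyrimidine tract protein, fell from 136 to 66.5 CPM, by 1.03 on the log2 scale (adjusted p = 4.8e-33), and RBM10, an exon-skipping regulator, from 138 to 81.0 CPM, by 0.77. Of the 30 regulators, 10 were lower and 2 higher, a share of 40% that is near the 36.8% of all tested genes and the 46.8% of the abundant ones called in this comparison. Of 10 tested kinases and importers of SR proteins, DYRK1A (0.37), CLK4 (0.28), CLK1 (0.21) and CLK2 (0.20) rose in log2 and TNPO1 (-0.21), SRPK2 (-0.17) and TNPO3 (-0.15), the importer of SR proteins, fell. The call of CLK2 stood in 2 of 8 fits without 1 library and was lost with DESeq2 (adjusted p = 0.055), without the filter (0.062) and with the GC and length offset (0.12). CLK4 kept its call in 6 of 8 such fits and CLK1 in 7 of 8. With Dox 1 of these 10 was called in sgIGF2BP2, CLK2 at -0.24 (adjusted p = 0.028, and 0.16 without replicate 2 of the Dox group), and 0 in the other lines. Of 28 SR-related genes, 7 (25%) were higher with siIGF2BP2, among them NKTR (0.30) and SREK1 (0.21), and 0 were lower. Among all tested genes 18.4% rose and 18.4% fell. The 25% called in either direction was below the 36.8% of all tested genes and the 46.8% of the abundant ones. Of 12 factors of nonsense-mediated decay, UPF3B (0.36), SMG9 (0.29) and UPF3A (0.28) rose and 4 fell. With siIGF2BP3, 1 core gene fell, PRPF31 at -0.22, as did 1 of the regulators, and no kinase, importer, SR-related or decay gene was called.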

How the data were processed

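The authors deposited raw whole-number counts of reads per gene for 40 libraries, per the file headers 1 column per library. The submitters' processing notes name bcl2fastq 2.20.0.422, STAR 2.7.5c and hg38. The counting tool, annotation and use of strand are not given in the sources used here. Of 19962 identifiers, 19847 were named from GENCODE release 29. The members and lists were chosen with earlier results of these data known.

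Counts were tested with edgeR 4.0.16 (limma 3.58.1, R 4.3.3): filterByExpr by group (11428 genes kept), TMM scaling (factors 0.978 to 1.03), glmQLFit and glmQLFTest on all 40 libraries with 1 coefficient per group, and Benjamini-Hochberg adjustment over all 11428 genes, called at an adjusted p under 0.05. The common biological coefficient of variation was 3.79%. The script was tested on simulated data. SE is the log2 change divided by the square root of F. CPM uses TMM-scaled library sizes, and depth was 10018181 to 24822807 counts. Named in each treatment comparison were up to 6 called members with the largest changes, members called in several lines or by both pools, up to 4 in each difference, those near IGF2BP2, IGF2BP3 or SPOP, and up to 3 called genes per list. Other genes in the text were chosen after their values were seen. The other-cell marker lists (fibroblast, immune, endothelial) were near 0. Alternatives were RLE scaling, DESeq2 1.42.0, no filter, only the groups compared, a replicate block, a test against 1.2-fold, leaving out each library, and a GC and length offset added after seeing the data.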

Additional observations from a re-analysis of the deposited data

Results flagged for a closer look

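In 4 of 85 groups of wells checked for the named members, 1 well lay far from the other 3, where chance gives about 1 in 20. HNRNPAB had 533 CPM in replicate 3 of sgAAVS1 with DMSO, above the other 3 wells. HNRNPF had 490 CPM in replicate 2 of sgIGF2BP2 with Dox, the well with the lowest mitochondrial share, below the others. SRSF10 had 109 CPM in replicate 3 of siIGF2BP2, below the others. TRA2A had 82.5 CPM in replicate 1 of sgIGF2BP2 with DMSO, above the others.

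For 13 members the change differed between lines or siRNA pools, by edgeR's quasi-likelihood test of the difference in log2 change. In the order below, 11.4%, 8.57%, 14.3% and 17.1% of the 35 tested members differed. The shares of all tested genes were 6.97%, 7.78%, 2.91% and 18.7%, and those among genes of at least the same abundance were not counted. HNRNPH2, TRA2B and, between the pools, HNRNPA1 kept their calls in 7, 7 and 6 of 16 fits without 1 library. HNRNPA2B1, HNRNPA3 and HNRNPU lost theirs between sgIGF2BP2 and sgAAVS1 with the GC and length offset. Between Dox in sgIGF2BP2 and in sgAAVS1 the difference was -0.15 for HNRNPA2B1, -0.18 for HNRNPA3, -0.17 for HNRNPDL and -0.16 for HNRNPU. Between sgIGF2BP3 and sgAAVS1 it was 0.16 for HNRNPH1, -0.20 for HNRNPH2 and 0.18 for SRSF2. Between sgIGF2BP3 and sgIGF2BP2 it was 0.17 for HNRNPA1, 0.19 for HNRNPF, 0.21 for HNRNPH1, 0.20 for HNRNPU and 0.18 for TRA2B. Between siIGF2BP3 and siIGF2BP2 it was -0.17 for HNRNPA0, 0.11 for HNRNPA1, 0.22 for HNRNPH1, 0.15 for HNRNPU, -0.14 for SRSF5 and 0.20 for SRSF9.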

How the results depend on the processing

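The counts of called members are given in the order Dox in sgAAVS1, sgIGF2BP2 and sgIGF2BP3, siIGF2BP2, siIGF2BP3, then the differences sgIGF2BP2 against sgAAVS1, sgIGF2BP3 against sgAAVS1, sgIGF2BP3 against sgIGF2BP2 and the pools, then siControl in sgIGF2BP2 and sgIGF2BP3. The reported counts were 7, 23, 0, 16, 2, 4, 3, 5, 6, 11 and 15. DESeq2 gave 11 in sgAAVS1 and 5 in sgIGF2BP3 with Dox. The GC and length offset gave 20 and 3 there, 1, 5 and 11 for the differences between lines, and 17 for siControl in sgIGF2BP2. Against 1.2-fold, 0 members were called in any comparison that had calls. Without the filter, 2 were called with Dox in sgIGF2BP3 and 1 with siIGF2BP3. With only the groups compared, both counts were 4. Same-numbered wells had no correlation over 0.1, so the replicate block pairs by number alone. It gave 1 in sgIGF2BP3 with Dox and moved no other count by over 1.5 times. In the comparison of siControl with DMSO in sgIGF2BP2, 8 of 8 wells correlated best with their own number. RLE scaling moved no count by over 1.5 times. Leaving out each library gave 4 to 8, 21 to 24, 0 to 3, 12 to 18, 0 to 2, 2 to 6, 1 to 3, 4 to 7, 4 to 7, 7 to 11 and 12 to 15. The lowest value for sgAAVS1 came without replicate 1 of its Dox group. The log2 change of TRA2A with Dox in sgIGF2BP2, near 0 with all wells, ran from -0.025 (without replicate 4 of DMSO) to 0.045 (without replicate 1 of DMSO) and was 0.013 without replicate 1 of Dox and 0.016 without replicate 3 of Dox. The cause of these shifts was not tested.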
